A study of Mus musculus with 6 samples.

Results

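*Eef1a1* and *Eef1a2* encode the 2 isoforms of translation elongation factor eEF1A, and the balance between them was measured in 6 clonal MIN6 lines together with *Eef1b2*, *Eef1d*, *Eef1g* and *Eef2*. These 6 genes, of 53801 mouse genes measured, were selected on the level of *Eef1a2*, which is high in 1 control clone, Control 3, so the *Eef1a2* values below are a description and were not tested. All 6 genes were among the 17823 that passed the expression filter, set at a mean of 0.5 TPM (transcripts per 1000000, the deposited unit). MIN6, a line from a mouse insulinoma, serves as a β cell model. All 6 clones derive from Cas9-expressing MIN6 cells that received a lentiviral guide RNA and were selected with puromycin. In the 3 control clones Cas9 was targeted to intron 2 of *Snd1*, and in the 3 *Snd1* KO clones to exon 2. *Snd1* encodes a nuclease and Tudor domain coregulator. Each line grew from 1 cell and gave 1 library, so the spread within a group is the spread between clones, and what a single clone carries cannot be told apart from its library.

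In each round of translation elongation, eEF1A bound to GTP brings an aminoacyl-tRNA to the ribosome. The eEF1B complex then exchanges the spent GDP for GTP. Its subunits are eEF1Bα (*Eef1b2*) and eEF1Bδ (*Eef1d*), which carry the exchange activity, and eEF1Bγ (*Eef1g*), which has a structural role. eEF2, a second GTPase, moves the ribosome along by 1 codon. Most cell types use eEF1A1, whereas neurons and striated muscle switch to eEF1A2 as they mature.

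The 2 eEF1A genes are shown by sequence because reads had to be told apart between them. *Eef1a1* lies on the minus strand of chromosome 9 from 78478449 to 78489151, and *Eef1a2* on the minus strand of chromosome 2 from 181147653 to 181157014 (GRCm38, GENCODE M21). Their coding sequences hold 462 and 463 codons, and the transcript examined of each has 8 exons. The first 90 coding bases, which begin in exon 2 of both, are given below from chr9:78480565-78480654 and chr2:181155317-181155406 of GRCm38, with the bases that differ in capitals.
Eef1a1: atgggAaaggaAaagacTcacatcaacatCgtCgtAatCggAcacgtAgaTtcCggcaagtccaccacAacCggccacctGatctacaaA
Eef1a2: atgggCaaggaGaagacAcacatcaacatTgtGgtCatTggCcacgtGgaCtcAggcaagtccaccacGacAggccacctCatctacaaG
The stretches differed at 15 bases, all 15 at the third position of a codon, and 0 of these changes altered the encoded residue. Over the whole coding sequence 1113 of 1392 aligned bases were identical (80.0%), and the longest identical run was 23 bases. Of 462 aligned codons 241 differed, 205 of them without a change of residue, so that 92.2% of residues were the same.

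The upstream sequences differed more visibly. The 250 bases before each RefSeq start are given from RefSeq (GRCm38.p6), at chr9:78481725-78481974 and chr2:181157016-181157265 on the minus strand, with CG dinucleotides in capitals. RefSeq promoter entries matched 4 of the 6 genes.
Eef1a1: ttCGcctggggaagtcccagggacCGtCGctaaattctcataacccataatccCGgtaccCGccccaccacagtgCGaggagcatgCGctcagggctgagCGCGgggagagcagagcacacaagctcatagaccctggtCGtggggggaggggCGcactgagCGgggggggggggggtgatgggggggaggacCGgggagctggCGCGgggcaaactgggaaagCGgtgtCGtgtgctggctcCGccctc
Eef1a2: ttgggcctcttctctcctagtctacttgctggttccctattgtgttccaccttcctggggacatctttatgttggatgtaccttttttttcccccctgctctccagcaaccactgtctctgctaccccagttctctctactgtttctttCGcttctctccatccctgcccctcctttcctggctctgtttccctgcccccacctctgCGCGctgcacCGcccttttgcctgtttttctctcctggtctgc
*Eef1a1* had 18 CG dinucleotides in this window and *Eef1a2* had 4, compared with a median of 6 over 32851 mouse promoter windows of the same length. The window of *Eef2* held 23 and that of *Eef1b2* held 19. At least 18 were found in 21.7% of all windows. The motif GGGCGG, on either strand, occurred 2 times in *Eef1a1*, 1 time in *Eef1a2* and 0 times in *Eef2* and *Eef1b2*, and was present in 32.7% of all windows. TATAAA, on either strand, occurred 1 time in *Eef2* and in 12.4% of all windows. These matches describe the letters of the window and were not related to binding.

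The libraries held 25.9 to 33.1 M recovered reads (M, 1000000) in control and 27.1 to 30.4 M in *Snd1* KO clones. The targeted gene, *Snd1*, ranged from 112 to 119 TPM in the control group, against 14.7, 57.1 and 19.9 TPM in *Snd1* KO 1 to 3. All 11 β cell markers examined, including *Ins1* and *Ins2*, were detected, with a summed level of 47934 to 81088 TPM in control and 51905 to 88752 TPM in *Snd1* KO clones. Control 3 stood apart from its group. Across 11368 genes its Pearson correlation of log2(TPM + 1) was 0.955 with *Snd1* KO 3 and 0.949 with *Snd1* KO 2, above the values of 0.943 with Control 1 and 0.936 with Control 2, and 0.938 with *Snd1* KO 1. *Snd1* KO 1 also stood apart from its group, at 0.922 with *Snd1* KO 2 and 0.933 with *Snd1* KO 3. Control 3 was the lowest of the 6 clones for 27.9% and the highest for 9.34% of all genes tested.

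*Eef1a2* was abundant in Control 3 and close to absent in the other 5 clones. Control 3 had 626 TPM from 6457 reads. Control 1 had 2.01 TPM from 24 reads and Control 2 had 2.73 TPM from 31 reads, with exact 95% Poisson intervals of 1.29 to 2.99 and 1.86 to 3.88 TPM that cover counting error only. *Snd1* KO 1 had 0.465 TPM from 5 reads (0.151 to 1.09), *Snd1* KO 2 had 0 reads and *Snd1* KO 3 had 0.0900 TPM from 1 read. Control 3 was 229-fold above Control 2, the next clone, and at least 2162-fold above *Snd1* KO 2 by the floor of 3 reads, worth 0.290 TPM there, or 1758-fold by the exact Poisson limit of 0.356 TPM. Control 1 and Control 2 were 4.32-fold and 5.88-fold above *Snd1* KO 1. The difference between the group means of log2(TPM + 1) was −4.04, and −1.52 without Control 3. It was −6.14 with a pseudocount of 0.1 TPM, −6.44 with voom on recovered reads and −2.08 with clone quality weights. In bulk RNA, a few cells with much *Eef1a2* and many cells with little cannot be told apart.

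**Figure D1:**
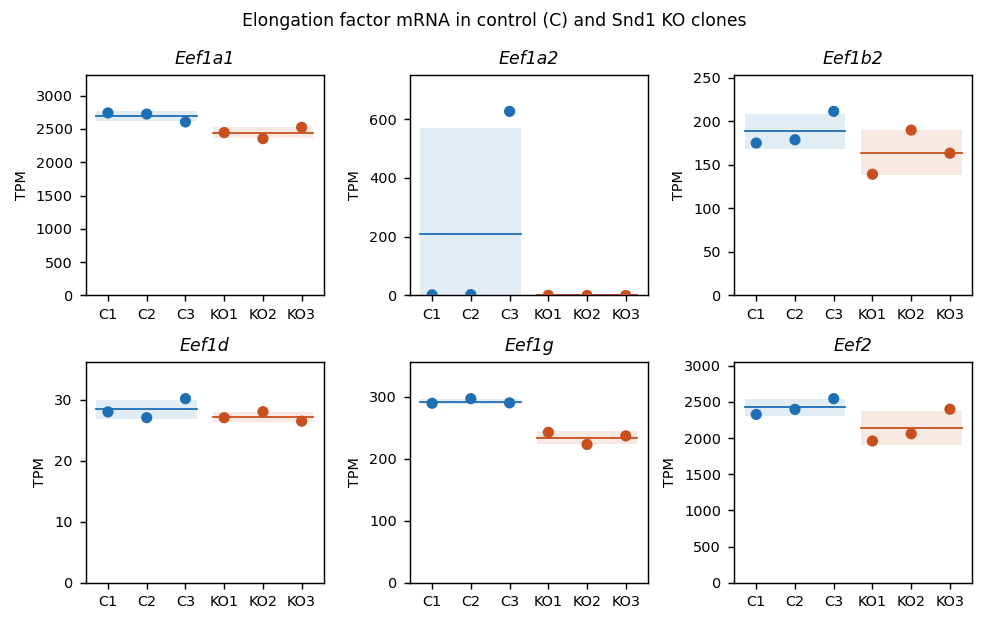
TPM (linear axes from 0) of the 6 elongation factor genes in control clones (C1 to C3, blue) and *Snd1* KO clones (KO1 to KO3, orange), 1 point per clone. Lines are group means and bands 1 SD (cut at 0). *Eef1a2* reached 626 TPM in Control 3 and at most 2.73 TPM elsewhere, whereas the *Eef1g* values of the groups were apart, at 290 to 297 and 223 to 243 TPM.

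*Eef1a1*, the isoform of most cell types, was high in every clone. The control clones, from 1 to 3, had 2740, 2724 and 2605 TPM, and the *Snd1* KO clones 2445, 2355 and 2524 TPM. Its coefficient of variation over the 6 clones was 5.99%, and 3.16% of genes tested varied less (median of all genes 22.8%). It was 7.69% after median-ratio scaling and 14.9% after quantile normalization, measures added after the data were seen. Control 3, with its high *Eef1a2*, was the lowest control clone for *Eef1a1*, at 101.9% of the mean of the other 5 clones. That position depends on scaling, as Control 3 was the highest of all clones after median-ratio scaling and the fifth after quantile normalization. The sum of *Eef1a1* and *Eef1a2* was 3231 TPM in Control 3, and 2355 to 2742 TPM in the other clones. With each exonic base counted once, the sum was 5371 TPM in Control 3 and 4475 to 5192 TPM in the other clones.

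The share of *Eef1a2* among eEF1A mRNA was 19.4% in Control 3 by TPM as deposited. It was 0.0733% in Control 1, 0.10% in Control 2, 0.0190% in *Snd1* KO 1, 0 in *Snd1* KO 2 and 0.00357% in *Snd1* KO 3. The share in Control 3 depends on how gene length is counted. The deposited values divide by the summed length of all annotated transcripts, which is 7596 bases for the 8 transcripts of *Eef1a1*, where the exons cover 2493 bases once, and 2084 bases for the single transcript of *Eef1a2*. With each exonic base counted once the share in Control 3 was 7.31%, at 4978 TPM of *Eef1a1* and 393 TPM of *Eef1a2*. As a share of reads it was 6.19% (exact 95% binomial interval 6.04 to 6.33%). On this read scale Control 1 had 0.0201%, Control 2 0.0275%, *Snd1* KO 1 0.00522% and *Snd1* KO 3 0.000979%, and the 0 reads of *Snd1* KO 2 allow a share of up to 0.00337% by the floor of 3 reads, or 0.00415% by the exact binomial limit. *Eef1a1* was therefore the more abundant isoform in all 6 clones on all 3 scales.

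The distance of *Eef1a2* in Control 3 from the next clone was the largest of the 17823 genes tested, at 7.39 on the log2(TPM + 1) scale. A distance of over 10-fold was found for 5 genes, or 0.0281%. The rule that chose *Eef1a2* used this value. The other 4 were *Gm48503*, *Fetub*, *Tmem35a* and *Mir369*. *Fetub*, which encodes the secreted protease inhibitor fetuin-B, had 1079 reads in Control 3 and 7 to 13 elsewhere, and a distance of 4.22. *Tmem35a*, which encodes a chaperone of nicotinic acetylcholine receptors, had 197 reads in Control 3 and 0 to 2 elsewhere. The antisense transcript *Gm48503* had 22 reads and the microRNA gene *Mir369* had 4 reads in Control 3, and both had 0 elsewhere.

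By the shape of the pattern, 30 other genes had a Pearson correlation of at least 0.95 with *Eef1a2* over the 6 clones, a likeness that rests on Control 3 alone and was not tested. Of these, 17 had at least 10 reads in Control 3. Beside the 4 genes above, those with the largest distances were *Snord82*, *Gm23338*, *n-R5-8s1*, *1700024J04Rik*, *Gm45587* and *Mir3065*, with 3, 4, 12, 49, 44 and 2 reads in Control 3. The mirror pattern, with a correlation of at most −0.95, was met by 180 genes. Its 5 members with the largest distances were *Gm23115*, *Gm23493*, *Gm12688*, *Gm24276* and *Gm4468*, of which Control 3 had 0, 0, 1, 3 and 1 reads and the other clones at most 58.

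**Figure D2:**
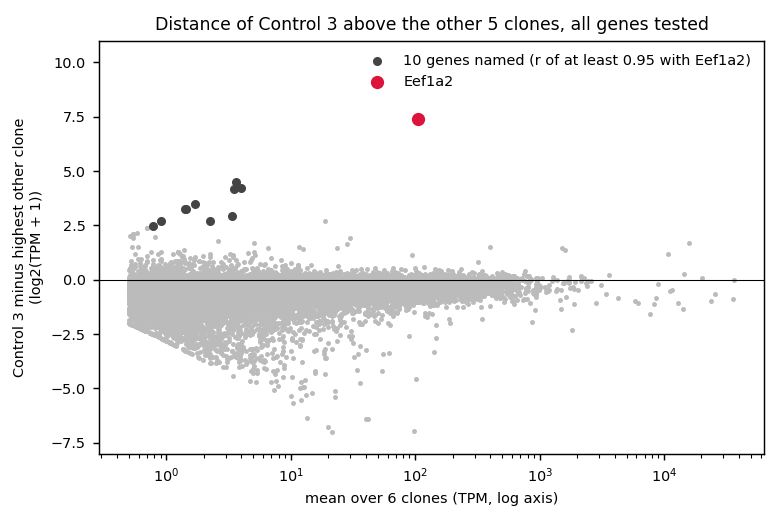
Distance of Control 3 from the highest of the other 5 clones in log2(TPM + 1), against the mean over 6 clones (TPM, log axis), for the 17823 genes tested. *Eef1a2* (red) lies at 7.39, and the 10 genes with the largest distances among those correlated with it at 0.95 or more (dark points) at 2.50 to 4.50.

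The genes examined around *Eef1a2* showed no such step. Of 23 other genes examined that start within 250 kb, 14 passed the expression filter. Control 3 was above the range of the other clones for 1 of them, below it for 2 and within it for 11. Over all genes tested it was above that range for 9.34% and below it for 27.9%. The difference of Control 3 from the mean of the other clones lay between −0.40 and 0.24 on the log2(TPM + 1) scale, against 8.46 for *Eef1a2*. *Ppdpf* starts 30.2 kb away and had 17.0 TPM in Control 3 and 13.4 to 18.3 TPM elsewhere. *Col20a1*, a collagen gene, was the gene above the range, at 1.13 TPM compared with 0.598 to 0.939 TPM. *Helz2* and *Zgpat* were below it, at 3.39 and 9.77 TPM, compared with lowest values elsewhere of 3.48 and 10.3 TPM. Within 250 kb of *Eef1a1* start 22 other genes, of which 6 were tested. Control 3 was above the range for 0 and below it for 2, namely *Cgas*, which encodes a DNA sensor, with 3.74 TPM compared with 6.08 to 11.1 TPM, and *Mto1*, with 11.9 TPM compared with 12.0 to 15.2 TPM.

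**Figure D3:**
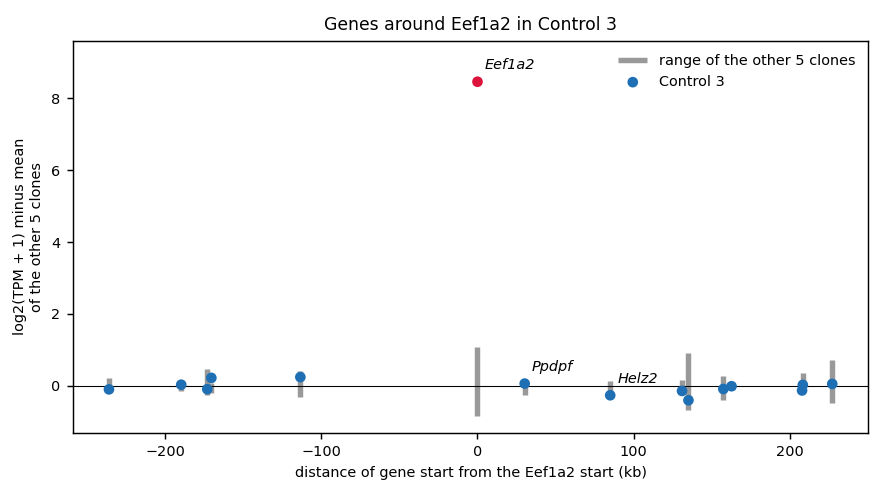
Difference in log2(TPM + 1) between Control 3 and the mean of the other 5 clones for 14 tested genes that start within 250 kb of *Eef1a2*, by the distance between gene starts in kb. Points are Control 3 and grey bars the range of the other clones. *Eef1a2* (red) is at 8.46, and the 14 other genes lie between −0.40 and 0.24.

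Markers of the tissues that use eEF1A2 were measured beside it. The summed level of 12 neuronal genes, all of them detected, was 1129 TPM in Control 3, the lowest of the 6 clones. It was at most 1418 TPM in the other control clones and 1373 to 1642 TPM in *Snd1* KO clones. Control 3 was the lowest clone for 7 of the 12 and the highest for 0, compared with 27.9% and 9.34% of all genes tested. The 12 striated muscle genes summed to 2.68 TPM in Control 3, up to 17.9 TPM in the other control clones and 1.81 to 4.33 TPM in *Snd1* KO clones, with *Myh2* and *Myod1* at 0 in all. Control 3 was the lowest clone for 5 of the 12, compared with 27.9% of all genes tested, and 8 of the 12 averaged below 0.5 TPM. It was the highest for 1, *Acta1*, with 2.65 TPM compared with 0.846 to 2.63 TPM elsewhere. *Ckm*, *Mb* and *Des*, which encode muscle creatine kinase, myoglobin and desmin and are named after their values were seen, were at 0 in Control 3. In Controls 1 and 2 they had 2.18 and 2.25, 10.4 and 12.0, and 1.65 and 1.42 TPM, respectively, and in *Snd1* KO clones at most 1.16 TPM. The fibroblast genes *Col3a1* and *Lum* were likewise higher in Controls 1 and 2, at 1.68 and 1.73 and at 0.713 and 1.05 TPM, and at 0 in Control 3. The part of these cell type markers in the *Eef1a2* levels was not tested. Fibroblast markers summed to 0.176 to 5.39 TPM in control and 0.503 to 0.892 TPM in *Snd1* KO clones, leukocyte markers to 1.16 to 2.92 and 1.84 to 2.61 TPM, and islet hormones other than insulin to 174 to 314 and 55.9 to 1102 TPM. Control 3 had 0.176, 1.81 and 314 TPM of these lists.

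Among subunits of the exchange factor, *Eef1g* was the member with the clearest separation of the groups. Controls 1 to 3 had 290, 297 and 290 TPM, and *Snd1* KO 1 to 3 had 243, 223 and 237 TPM, so that the groups did not overlap. The means were 292 ± 4.13 and 234 ± 10.1 TPM (SD, n = 3 each), or 80.2% of control, and the log2 fold change was −0.32 (standard error 0.094). It did not pass the test across all genes (limma, adjusted p = 0.568, unadjusted p = 0.0124), and an exact two-sided permutation test gave p = 0.1, the smallest that 3 clones against 3 allow. Its adjusted p over the alternatives lay between 0.0251 and 0.983, with the lowest value when clones were weighted by their estimated quality. The groups stayed apart under all scalings tried, namely median-ratio scaling, quantile normalization and each exonic base counted once.

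*Eef1b2*, the α subunit, was at 175, 179 and 212 TPM in Controls 1 to 3 and at 139, 190 and 164 TPM in *Snd1* KO 1 to 3. The groups overlapped, with means of 189 ± 20.0 and 164 ± 25.4 TPM (SD, n = 3 each) and a log2 fold change of −0.20 (standard error 0.15, limma, adjusted p = 0.734, exact permutation p = 0.3). *Eef1d*, the δ subunit, was at 28.0, 27.1 and 30.2 TPM in Controls 1 to 3 and at 27.1, 28.0 and 26.5 TPM in *Snd1* KO 1 to 3. Its coefficient of variation was 4.71%, the lowest of the 6 genes for TPM as deposited, but 8.82% after median-ratio scaling, above that of *Eef1a1*, and 9.06% after quantile normalization. Control 3 moved from 110.4% of the mean of the other clones to 122.0% after either scaling. The log2 fold change was −0.06 (standard error 0.10, limma, adjusted p = 0.896, exact permutation p = 0.4).

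Ratios within a clone do not change when a library is scaled by 1 factor. *Eef1g* relative to *Eef1d* was 10.3 ± 0.68 in control and 8.62 ± 0.58 in *Snd1* KO clones (SD, n = 3 each, TPM as deposited), and these groups did not overlap. *Eef1a1* relative to *Eef1g* was 9.21 ± 0.24 and 10.4 ± 0.31, also without overlap. *Eef1g* relative to *Eef1b2* overlapped, at 1.56 ± 0.16 and 1.45 ± 0.28, as did *Eef1a1* relative to *Eef2*, at 1.11 ± 0.080 and 1.15 ± 0.098. The 3 ratios with *Eef1g* share its values and are not independent of them.

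*Eef2*, the translocase, was at 2327, 2397 and 2545 TPM in Controls 1 to 3 and at 1960, 2060 and 2399 TPM in *Snd1* KO 1 to 3. *Snd1* KO 3 lay within the control range and the other *Snd1* KO clones below it. The means were 2423 ± 111 and 2140 ± 230 TPM (SD, n = 3 each), with a log2 fold change of −0.18 (standard error 0.16, limma, adjusted p = 0.758, exact permutation p = 0.3). For *Eef1a1* the means were 2690 ± 73.8 and 2441 ± 84.5 TPM, or 90.7% of control. All *Snd1* KO values of *Eef1a1* lay under the lowest control value, with a log2 fold change of −0.14 (standard error 0.14, limma, adjusted p = 0.806, exact permutation p = 0.1), although the groups overlapped after quantile normalization.

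Of the 5 members other than *Eef1a2*, 0 passed the threshold of an adjusted p under 0.05 and a 2-fold change, a threshold that 0.00561% of all genes tested passed. The targeted gene *Snd1* did not pass either, at a log2 fold change of −2.11 (limma, adjusted p = 0.511, unadjusted p = 0.00258). A count of 0 past the threshold therefore does not show that genes were unchanged. Of the 5 members only *Eef1g* had an unadjusted p under 0.05, as did 7.96% of all genes tested. The groups did not overlap, with *Snd1* KO lower, for 2 of the 5, compared with 4.03% of all genes. All 5 log2 fold changes were below 0, with a median of −0.18, whereas the median of all genes was 0.044 and 42.7% were below 0. The highest clone was Control 3 for *Eef1b2*, *Eef1d* and *Eef2*, 3 of the 5, compared with 9.34% of all genes tested. After quantile normalization *Eef2* was the fourth in Control 3, and after median-ratio scaling Control 3 was the highest for all 5. Median-ratio scaling divides each clone by a size factor, which was lowest in Control 3, at 0.920. It therefore raised every detected gene of Control 3 relative to the other clones. The 9.34% holds for TPM as deposited, and the share of all genes under median-ratio scaling was not counted. The count for all 5 thus cannot be set against a background. Without Control 3 the log2 fold changes were −0.16 for *Eef1a1*, −0.12 for *Eef1b2*, −0.018 for *Eef1d*, −0.32 for *Eef1g* and −0.15 for *Eef2*.

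Levels of different genes can be set in order only per length. With each exonic base counted once, *Eef1a1* had 4475 to 5191 TPM over the 6 clones, *Eef2* 1582 to 2045 TPM, *Eef1g* 314 to 419 TPM, *Eef1b2* 251 to 380 TPM and *Eef1d* 55.7 to 63.4 TPM. The ranges of *Eef1g* and *Eef1b2* overlapped and those of the other neighbours in this order did not. *Eef1a2* in Control 3, at 393 TPM, lay in the range of *Eef1g*, and at up to 1.71 TPM in the other clones below *Eef1d*. As deposited, with summed transcript lengths, the ranges of *Eef1a1* and *Eef2* overlapped.

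The enzymes that modify the elongation factors were examined as a list of 14 genes. It holds *Eef2k*, whose kinase inhibits eEF2, genes for the diphthamide residue of eEF2 (*Dph1*, *Dph2*, *Dph3*, *Dph5*, *Dph6*, *Dph7* and *Dnajc24*) and lysine methyltransferase genes for eEF1A and eEF2. All 14 were tested, and 0 passed in either direction. Their median log2 fold change was −0.017, with 9 below 0, and its sign rested on single clones, as it was 0.0090 without *Snd1* KO 2, 0.0056 without *Snd1* KO 3 and −0.073 without *Snd1* KO 1. *Dnajc24* was higher in every *Snd1* KO clone, at 24.3, 23.7 and 29.7 TPM in Controls 1 to 3 and 33.8, 45.9 and 31.9 TPM in *Snd1* KO 1 to 3 (log2 fold change 0.50, standard error 0.17, limma, adjusted p = 0.585). *Dph1* was lower in every *Snd1* KO clone, at 5.44 to 6.74 TPM compared with 7.00 to 8.32 TPM (−0.31, adjusted p = 0.621). *Eef1akmt4*, an eEF1A lysine methyltransferase gene, had the lowest log2 fold change, −0.39 (adjusted p = 0.713), and *Eef2kmt*, which encodes that of eEF2, the second highest, 0.069 (adjusted p = 0.942). Over all genes tested, 9.69% were higher and 4.03% lower in every *Snd1* KO clone, so 1 of 14 in each direction is near that background.

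The other cytosolic genes of elongation and ribosome rescue were 9, all tested, of which 0 passed and 0 had groups apart, as 13.7% of all genes did. Their median log2 fold change was −0.062, and with 1 clone left out it lay between −0.15 (without *Snd1* KO 1) and −0.0069 (without Control 1), with −0.13 without Control 3. The lowest values were those of *Pelo* (−0.24), which encodes the rescue factor pelota, and *Eif5a* (−0.16), which encodes a factor for stretches that are slow to translate. The highest were those of *Gtpbp1* (0.094) and *Gtpbp2* (0.0040), which encode GTPases related to eEF1A. Of the 5 mitochondrial elongation factor genes 0 passed and 0 had groups apart (13.7% of all genes), with a median of −0.027 that was 0.070 without *Snd1* KO 2, 0.042 without *Snd1* KO 3 and 0.00021 without Control 2. *Tufm* (−0.10) and *Gfm1* (−0.053), which encode the mitochondrial counterparts of eEF1A and eEF2, were the lowest, and *Guf1* (0.21) and *Gfm2* (0.061) the highest.

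Of the 4 genes of termination and recycling, 0 passed and 0 had groups apart (13.7% of all genes), with a median of −0.096 that rested on single clones, as it was 0.057 without *Snd1* KO 2, −0.30 without *Snd1* KO 1 and −0.23 without Control 3, and −0.28 with clone quality weights. *Gspt2*, which encodes a release factor eRF3 isoform, followed the split between Control 3 and the other control clones, at 66.2, 64.8 and 22.0 TPM in Controls 1 to 3 and 33.0, 24.4 and 25.6 TPM in *Snd1* KO 1 to 3 (−0.72, standard error 0.42, limma, adjusted p = 0.673). *Etf1*, *Gspt1* and *Abce1*, which encode the release factors eRF1 and eRF3 and a recycling ATPase, had log2 fold changes of −0.12, −0.076 and −0.057.

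The mRNAs of the elongation factors carry a 5′ terminal oligopyrimidine (TOP) motif that links their translation to mTOR signaling, and 15 other TOP mRNAs were examined beside them. All 15 were tested, 0 passed, and the median log2 fold change was −0.037. It was 0.028 without *Snd1* KO 1, −0.010 without Control 3 and −0.086 without *Snd1* KO 2. *Rack1* (−0.34, adjusted p = 0.624) and *Eif3f* (−0.23, adjusted p = 0.746), which encode a ribosomal scaffold protein and an initiation factor subunit, were the lowest. *Pabpc1* (0.23, adjusted p = 0.625) and *Npm1* (0.14, adjusted p = 0.734), which encode poly(A)-binding protein and nucleophosmin, were the highest, and both were higher in every *Snd1* KO clone. *Eif4b* and *Eif3e* were lower in every *Snd1* KO clone. Groups apart in either direction were thus found for 4 of 15, compared with 13.7% of all genes (9.69% higher and 4.03% lower), a difference that was not tested. Over the 47 genes of the 5 lists the median was −0.053 and 68.1% of log2 fold changes were below 0. Over all genes tested these values were 0.044 and 42.7%, and the difference was not tested.

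**Figure D4:**
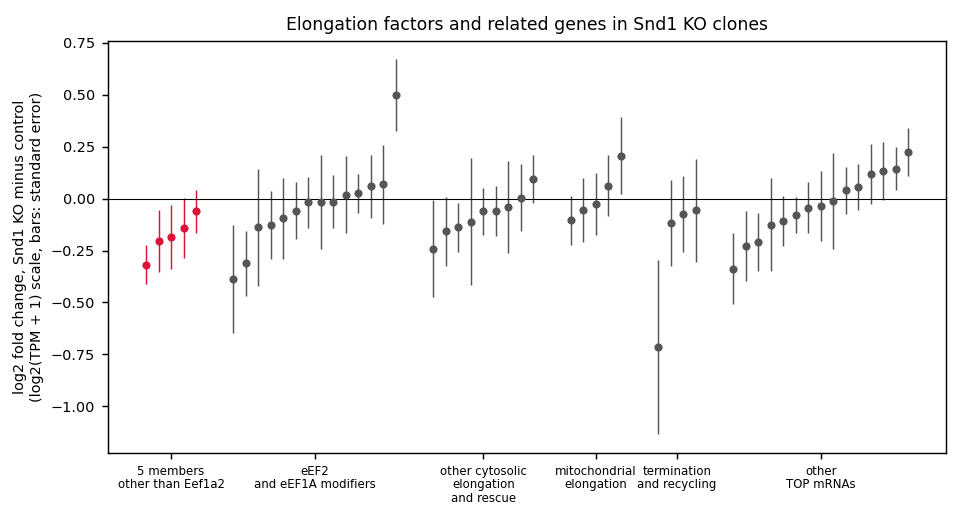
Log2 fold change of *Snd1* KO minus control on the log2(TPM + 1) scale for the 5 members other than *Eef1a2* (red) and the 47 genes of 5 lists (grey), 1 point per gene, with bars of 1 standard error from limma. The members lie between −0.32 and −0.06, and 0 of the 52 genes passed the threshold, which *Snd1* itself also missed.

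*Eef1a1* has many near-identical copies in the genome, and reads may be split between them. By alignment, 22 annotated genes were at least 85% identical to the *Eef1a1* transcript over at least 50% of their own length, whereas 0 other genes met this for *Eef1a2*. They comprise 17 processed pseudogenes and 5 short genes annotated as microRNAs. Together they held 0.371% of the number of *Eef1a1* reads in Control 3 and 0.531 to 0.595% in the other clones, and 5 had 0 reads in every clone. With these copies added to *Eef1a1*, the *Eef1a2* share in Control 3 was 18.8%. Of the 14 copies that averaged 0.5 TPM or more, the highest was *Mir703*, a 109-base gene that matches bases 1608 to 1715 of the *Eef1a1* transcript, past the end of the coding sequence at base 1509.

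The short copies were low in Control 3. For *Mir703*, Controls 1 to 3 had 77, 51 and 14 reads, and *Snd1* KO 1 to 3 had 31, 86 and 49. *Gm24276*, also annotated as a microRNA, followed with 24, 21 and 3 reads, against 25, 29 and 24 in the *Snd1* KO group. All 5 short copies together had 95.6, 79.9 and 21.4 reads per 100000 *Eef1a1* reads in Controls 1 to 3 and 64.7, 148 and 89.1 in *Snd1* KO 1 to 3. The pseudogene *Gm6548*, which aligns over 1166 bases, had 191 per 100000 in Control 3 and 277 to 329 elsewhere. *Gm13456*, by contrast, had 78.6 in Control 3, within the range of 73.0 to 114 elsewhere. Reads of these rows cannot be told apart from reads of *Eef1a1* that matched a copy.

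**Figure D5:**
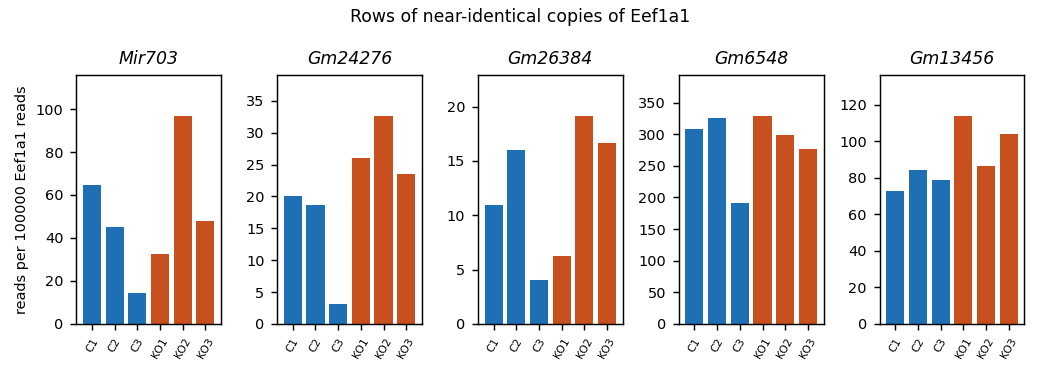
Reads per 100000 *Eef1a1* reads (linear axes from 0) in the 5 copies of *Eef1a1* with the highest mean TPM, 1 bar per clone for control (C1 to C3, blue) and *Snd1* KO clones (KO1 to KO3, orange). Control 3 is the lowest clone for *Mir703*, *Gm24276*, *Gm26384* and *Gm6548* but not for *Gm13456*.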

How the data were processed

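RNA from 3 control and 3 *Snd1* KO MIN6 clones was sequenced by the authors as paired ends. The submitters' processing notes name FastQC, Trimmomatic, HISAT2, HTSeq and DESeq2 and the build mm10. The authors deposited TPM values per gene for 53900 rows, among them 92 ERCC and 7 SIRV spike-in rows, and each library sums to 1000000. Of 53801 mouse genes, 53706 matched GENCODE M21 (GRCm38). Spike-ins, at most 1.02 TPM in sum, were not analysed.

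TPM multiplied by the summed length of a gene's transcripts gave whole reads, within 0.01, in all clones for 91.7% of 14851 genes, and this gave the depth per clone and the floor of 3 reads. Whether a pair counts as 1 or 2 is not stated in the sources used here. The 25.9 to 33.1 M reads recovered per clone exceed the approximate number of reads per library that the paper gives. The cause of this gap was not tested. If both reads of a pair were counted, the reads stand for fewer fragments, the intervals are too narrow and the floor of 3 reads is too low. Counts allow intervals for counting error only.

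Groups and clone numbers came from the sample labels. *Snd1* KO was compared with control on log2(TPM + 1) by limma 3.58.1 under R 4.3.3 (lmFit, then eBayes with a trend). The 17823 genes that averaged 0.5 TPM or more entered, and p-values were adjusted over all of them by Benjamini and Hochberg. Fold changes on this scale understate low genes. Single genes also had exact two-sided permutation tests. Copies were found with BLAST+ 2.17.0, and other steps used Python 3.11.15, pandas 2.3.3 and scipy 1.17.1. A run of the fit on simulated data, with the spread of genes capped at the median, checked the code only. It does not show how well the fit finds changes in these clones. Alternatives were pseudocounts, filters, scalings, clone quality weights, a replicate block, voom on recovered reads, leaving out each clone, gene lengths and no minimum fold.

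The members and lists were chosen with earlier results of these data known. The genes named were the 6 members, the 2 highest and 2 lowest log2 fold changes per list, up to 10 genes of the *Eef1a2* pattern and 5 of its mirror, genes within 250 kb, and expressed copies of *Eef1a1*. List genes with groups apart were also named after their values were seen. Protein sequences were not used here, and 1 gene within the window is not reported here.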

Additional observations from a re-analysis of the deposited data

How the results depend on the processing

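The depth limits *Eef1a2* in the *Snd1* KO clones, where 0 to 5 reads leave wide intervals, and does not limit the other members. The 5 members with a test kept a log2 fold change below 0 under all 14 alternatives, but its size moved. For *Eef2* it went from −0.18 to −0.034 with clone quality weights. For *Eef1b2* it went from −0.20 to −0.092 without *Snd1* KO 1 and −0.31 without *Snd1* KO 2. For *Eef1d* it went from −0.06 to −0.018 without Control 3 and −0.10 after median-ratio scaling. For *Eef1a1* it went from −0.14 to −0.22 after quantile normalization. Of all genes 1 passed the threshold, compared with 0 without a filter (1803 at an unadjusted p under 0.05) and 0 with voom on recovered reads (1549). With a clone left out the count was 0 to 1, and 1 only without *Snd1* KO 2 (760 to 2544 at an unadjusted p under 0.05). Clone quality weights were lowest in Control 3 (0.279) and *Snd1* KO 1 (0.286) and highest in *Snd1* KO 3 (3.91). With them 895 of 17823 genes passed, 525 higher and 370 lower, and 2164 had an adjusted p under 0.05. Of the 5 members 1 (*Eef1g*) then had an adjusted p under 0.05, compared with 0 in the main fit. Of the 47 list genes 1 (*Gspt2*) passed the threshold, compared with 0 in the main fit. With no minimum fold in the main fit, 1 gene passed. The *Eef1a2* share in Control 3 of 19.4% became 7.31% with each exonic base counted once, 6.19% by reads and 18.8% with the copies of *Eef1a1*. The 30 genes like *Eef1a2* became 12 with a pseudocount of 0.1 TPM and 6 under a filter of 5 TPM. The distance of *Eef1a2* was then 7.79, close to the next gene (*Gm48503*, 7.77), in the former and 7.39 against 2.68 in the latter. *Eef1a1* in Control 3, at 101.9% of the other clones, was 112.6% after median-ratio scaling and 87.7% after quantile normalization. Beyond these, the cause of the changes was not tested.

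For same-numbered clones of the groups, deviations from the group means correlated at 0.115, −0.199 and −0.108. For clones with unlike numbers the values lay between −0.172 and 0.250. Deviations within a small group depend on each other, so these values cannot show whether same-numbered clones shared handling. With a replicate block 0 genes passed (1195 at an unadjusted p under 0.05), and the adjusted p of *Eef1g* was 0.736. This block moved no other call reported here.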
